A study of Mus musculus with 8 samples.

Results

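The 81 genes described here, among 46625 gene rows, are named for proteins of the cytosolic ribosome. By name, 49 fall to the large subunit and 32 to the small subunit. All 81 were chosen by symbol alone: Rpl or Rplp followed by a number, and Rps followed by a number or Rpsa. The pattern left out numbered pseudogenes (-ps) and the ribosomal S6 kinases but not Rps4l, a small subunit name annotated as a pseudogene. The cells were 8F10 T cells, whose receptor recognises an insulin peptide. They developed from bone marrow stem cells of TCR alpha-deficient 8F10 donors (CD45.2) that had been depleted of mature lymphocytes and given to hosts (CD45.1) after non-lethal irradiation, and were sorted 6 weeks later from the inguinal lymph node. NOD and B16A hosts each gave 4 libraries, numbered by batch 1 to 4 with 1 library of each host per batch, and every library carries the strain label NOD/ShiLtJ. As background, B16A hosts are NOD mice that make only an insulin altered in its B chain, at the site the 8F10 receptor sees, so the comparison sets cells that matured beside native insulin against cells that matured without it. Irradiated hosts keep cells of their own, and all cells carry 1 T cell receptor, which limits how far they stand for other T cells. The labels do not say that libraries came from separate animals, so every p-value below measures the spread between these libraries, which may be partly technical.

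A ribosome joins a small subunit, which reads the messenger RNA, to a large subunit, which forms the peptide bond. Its proteins are made in near-equal numbers, and the translation of their messenger RNAs is held back in resting lymphocytes and released by growth signals through mTOR and the RNA-binding protein LARP1. Most of these genes have left processed pseudogenes, intronless copies of their messenger RNA, elsewhere in the genome. A read that falls where gene and copy are identical cannot be assigned to either by its sequence.

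That limit can be seen in the sequences. A 50-base window, the length of the reads, was slid along the coding sequence of each gene in GENCODE vM21 (GRCm38) and looked for in every other annotated transcript. The 3 sequences below are shown because they span the range from partly unique to fully copied. Each is 5′ to 3′ on the gene's own strand, and a capital marks the first base of a window found in no other annotated gene. Bases too near the end to start a whole window are lower case for that reason alone.
Rps21 (chr2:180257377-180258445, plus strand): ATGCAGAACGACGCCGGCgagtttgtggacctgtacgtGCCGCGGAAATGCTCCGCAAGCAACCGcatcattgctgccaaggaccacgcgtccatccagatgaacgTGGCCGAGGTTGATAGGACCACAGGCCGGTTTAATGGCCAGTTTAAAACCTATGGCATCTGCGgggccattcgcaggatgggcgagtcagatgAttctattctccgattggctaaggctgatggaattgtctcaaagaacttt
Rpl39 (chrX:37082520-37085402, minus strand): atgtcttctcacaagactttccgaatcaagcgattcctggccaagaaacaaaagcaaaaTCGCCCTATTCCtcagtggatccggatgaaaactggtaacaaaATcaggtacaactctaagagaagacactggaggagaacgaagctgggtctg
Rpl41 (chr10:128548114-128549305, minus strand): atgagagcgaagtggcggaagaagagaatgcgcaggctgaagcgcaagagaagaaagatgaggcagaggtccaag
Rps21 held 109 window starts of its own among 200 possible in 249 coding bases. Rpl39, the protein that lines the peptide exit tunnel, held 14 among 104 in 153 bases. Rpl41, the shortest ribosomal protein, held 0 among 26 in 75 bases.

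Of the 80 members with a coding model, 77 shared at least 1 window with an annotated pseudogene. In 29 members, 19 large and 10 small, every window was shared, and the median shared portion was 93.2% in the large and 90.1% in the small subunit. Rpl7a shared windows with 121 pseudogenes and Rps2 with 71. Rpl3l and Rpl39l shared none. The most shared partner of Rps10 was the readthrough gene RPS10-NUDT3, which overlaps it, and that of Rps27 was Rps27rt, a copy on another chromosome.

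The measured level followed this feature. Levels between genes are compared as CPM (read counts scaled to a common, TMM-adjusted library size) per kilobase of coding sequence, averaged over the 8 libraries. The 11 tested members with under 50% of windows shared had a median level of 1347 CPM per kb, from 61.0 for Rps27l to 2995 for Rps3. The 28 tested members with all windows shared had a median of 34.6 CPM per kb, from 6.46 for Rps6 to 5205 for Rpl41. Across the 76 tested members the Spearman correlation of level with shared portion was -0.707 (large -0.612, n = 45; small -0.81, n = 31). It is a description across genes, which share libraries and were counted with a treatment of multiply matching reads that the sources used here do not give. The part of shared sequence in the low values was not tested, and a low value cannot be read as little messenger RNA of that gene. Reads also fall in untranslated parts, which the windows do not cover. The level per kb divides all counts of a gene by its coding length alone. A short coding sequence in a longer transcript thus gives a high level, as in Rpl41, with 75 coding bases in a transcript of 544.

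**Figure D1:**
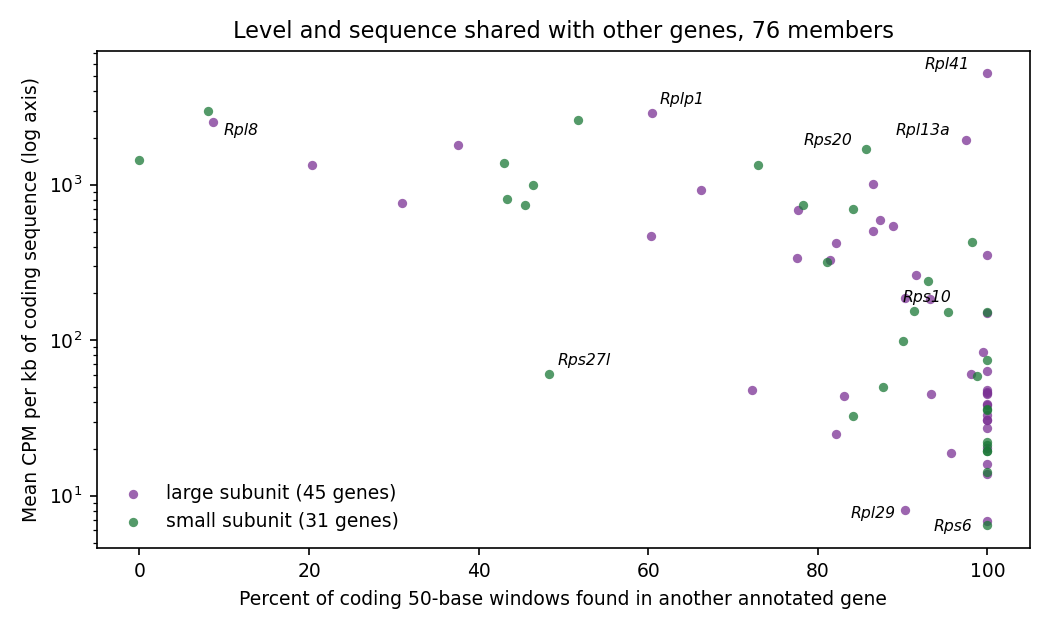
Mean CPM per kb of coding sequence (log axis) against the percent of coding 50-base windows found in another annotated gene, 1 point per tested member (purple, 45 large subunit genes; green, 31 small subunit genes). Points fall from a median of 1347 CPM per kb under 50% shared to 34.6 at 100%, with Rpl41 far above the others at 100%. Rpl41 has 75 coding bases in a transcript of 544, and the level divides by the coding bases alone.

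The libraries held the transcripts of CD4 T cells, and the batch 4 pair stood apart. Total counts were 4896593 to 6137666 in the 6 libraries of batches 1 to 3, and 28301805 (NOD) and 28094237 (B16A) in batch 4. The summed CPM of 8 CD4 T cell markers was 5157 to 15559 in NOD and 4555 to 11838 in B16A libraries, highest in batch 4 in both. This sum was higher in the NOD library of every batch, by 0.15, 0.18, 0.54 and 0.39 on the log2 scale in batches 1 to 4, where the mean log2 CPM of the ribosomal protein genes was higher by 0.14, 0.06, 0.53 and 0.18. Of the 8 marker lists it was the 1 that was higher in NOD each time. Single markers in the sum did not all follow it. Cd4 took 0.105%, 0.112%, 0.117% and 0.0723% of counts in NOD libraries 1 to 4. In B16A libraries 1 to 4 it took 0.124%, 0.128%, 0.116% and 0.0594%. Cd4 was thus lower in NOD in batches 1 and 2, and lowest in batch 4 in both hosts. Cd3e was also lower in NOD in batch 1, at 0.156% against 0.169%. All 6 B cell markers were detected, with sums of 452 to 1273 and 433 to 654 CPM. The 7 myeloid markers summed to 2.38 to 38.1 and 3.18 to 26.6 CPM, the 5 dendritic cell markers to 9.23 to 52.0 and 3.77 to 37.4 CPM, and the 4 NK cell markers to 4.65 to 20.3 and 6.24 to 41.6 CPM. CD8 T cell markers (2 genes) summed to 65.3 to 186 and 71.7 to 123 CPM, erythroid markers (5, Hba-a2 at 0) to 0.538 to 4.99 and 0.21 to 3.43 CPM, and stromal and endothelial markers (5, Pdpn at 0) to 285 to 371 and 270 to 411 CPM. The part of CD4 T cell content and of other cells in the results below was not tested, and fewer cells of a type and less RNA per cell cannot be told apart in these bulk samples.

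Ribosomal protein genes took a small share of each library, and more in batch 4 than elsewhere. Large subunit genes took 0.798%, 0.533%, 0.978% and 1.97% of the counts in NOD libraries 1 to 4, and 0.683%, 0.54%, 0.689% and 1.8% in B16A libraries 1 to 4. Small subunit genes took 0.605%, 0.379%, 0.829% and 1.57% in NOD and 0.514%, 0.33%, 0.515% and 1.57% in B16A libraries. The share was higher in the NOD library in batches 1, 3 and 4 for the large subunit and in batches 1 to 3 for the small subunit, and the ranges of the hosts overlapped. The large subunit's order in batch 2 rests on 1 other row: Gm10800, a predicted gene, took 17.1% of the counts in NOD library 2 and 5.87% in its B16A partner. With that row left out of the totals, an alternative chosen after seeing the data, the shares in batch 2 were 0.642% and 0.573%. The 95% Wilson intervals of these shares reached 0.0046 to 0.0078 percentage points to either side, which covers counting error only. The means were 1.07 ± 0.627% against 0.928 ± 0.585% for the large and 0.846 ± 0.517% against 0.732 ± 0.565% for the small subunit (SD, n = 4 each), a spread that holds the gap between batch 4 and the others. Within batches the NOD library exceeded its partner by 0.142 ± 0.123 percentage points for the large and 0.113 ± 0.139 for the small subunit (mean ± SD over 4 pairs). A two-sided exact permutation test within pairs gave p = 0.25 for each, where 4 pairs cannot go below 0.125. Without batch 3 the mean differences were 0.0927 and 0.0467 points.

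The balance of the 2 subunits ranged less widely than their shares. Counts of large over small subunit genes stood at 1.32, 1.4, 1.18 and 1.25 in NOD and at 1.33, 1.64, 1.34 and 1.14 in B16A libraries 1 to 4. The NOD library was lower in batches 1, 2 and 3, at 0.992, 0.854 and 0.881 times its partner, and higher in batch 4, at 1.1 times. The means were 1.29 ± 0.0943 in NOD and 1.36 ± 0.207 in B16A hosts (SD, n = 4 each), and the ranges overlapped. The 261 rows named as pseudogenes of ribosomal proteins (-ps) carried 0.0383% to 0.0921% of each library, or 2.6% to 4.71% of the members' counts. Copies that carry other names, such as Gm10288 of Rpl11, are not in that sum. The 10 most counted members carried 60.9% to 70.7% of all counts of the gene set, led by Rpl8 in 5 libraries and by Rps3, Rpl4 or Rps14 in the others.

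**Figure D2:**
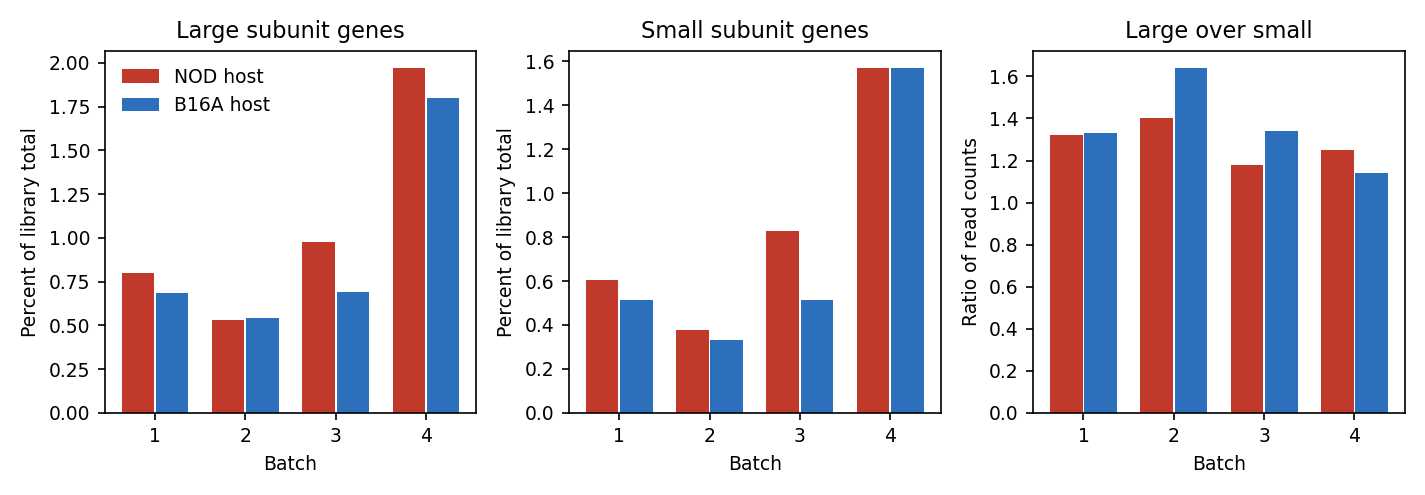
Percent of library counts on large subunit genes, on small subunit genes, and the ratio of both counts, by batch (red for NOD, blue for B16A; a bar is a single library and so has no error bar). Shares are highest in batch 4, at 1.97% and 1.8% for the large subunit, while the ratio stays between 1.14 and 1.64.

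Most ribosomal protein genes were a little higher in NOD than in B16A hosts, in both subunits, and none passed the test over all 4 batches. Of 45 large subunit genes tested, 39 had a positive log2 fold change (NOD over B16A), and of 31 small subunit genes 25 did, where 51.3% of all 14607 genes tested did. The median log2 fold change was 0.27 for the large and 0.25 for the small subunit and 0.01 for all genes. The adjusted p (edgeR quasi-likelihood test with batch as a block, Benjamini-Hochberg over all genes tested) was under 0.05 for 0 of 45 and 0 of 31 members in either direction, as for 0.0% of all genes, and the smallest member value was 0.683. At an unadjusted p under 0.05, 12 large (26.7%) and 9 small subunit genes (29.0%) were higher, against 3.55% of all genes. At that level 0 large and 1 small subunit gene were lower, against 2.31% of all genes. The lower one was Rps2, named here after its values were seen, at a log2 fold change of -0.45 ± 0.20 (SE). The block leaves 3 residual degrees of freedom per gene. Over the same libraries DESeq2 with the block put 1 large and 2 small subunit genes under 0.05, where 0.157% of all genes were called higher, and limma voom with sample weights put 1 and 1, where 0.0548% were. EdgeR without a filter on low counts put 0 and 1, where 0.0278% were. DESeq2 gave some members, Rpl11 among them, no adjusted p, so it could not call them.

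The 2 subunits had near-equal medians, and the gap between them was smaller than its spread over batches. The difference of their medians, large minus small, was 0.02 over all batches, and -0.01, -0.07, -0.17 and 0.12 within batches 1 to 4, which is -0.036 ± 0.123 (mean ± SD over the 4 batches). The within-batch medians of log2 CPM, NOD minus B16A, were 0.21, 0.05, 0.50 and 0.23 for the large and 0.22, 0.12, 0.67 and 0.11 for the small subunit. Batch 3 held the highest median of both and batch 2 the lowest of the large subunit. With batch 3 left out, the medians were 0.14 and 0.15. Over all genes tested the within-batch medians lay between -0.03 and 0.05.

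**Figure D3:**
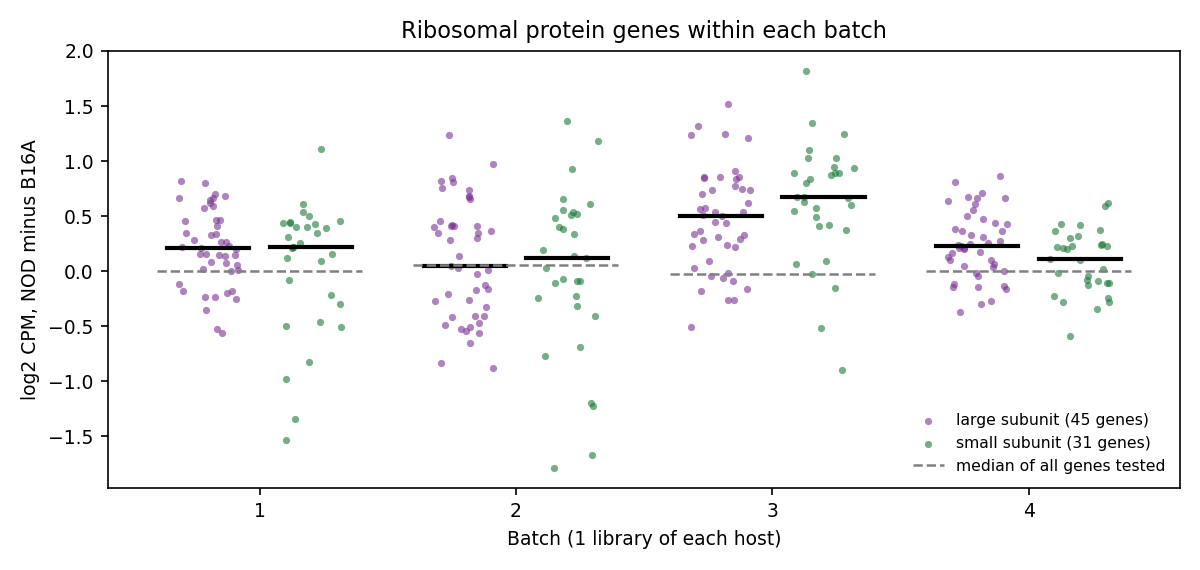
Log2 CPM of the NOD minus the B16A library of the same batch, 1 point per tested member (purple large, green small subunit), with the subunit median (black bar) and the median of all genes tested (dashed line). Subunit medians lie between 0.05 and 0.67, and Rps29 of the small subunit reaches -1.53 in batch 1.

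The direction of single members was counted within each batch. In batch 1, 35 of 45 large and 21 of 31 small subunit genes were higher in the NOD library, against 50.0% of all genes. In batch 2 the counts were 25 and 17, against 53.4%. In batch 3 they were 36 and 27, against 48.0%, and in batch 4 they were 35 and 18, against 46.4%. In batch 2 both subunits, at 55.6% and 54.8%, were thus near the background. A member was higher in the NOD library of all 4 batches in 11 large and 5 small subunit genes, or 21.1% of members, where 7.43% of all genes were. The large subunit genes were Rpl7a, Rpl10, Rpl11, Rpl13a, Rpl14, Rpl18, Rpl19, Rpl36, Rpl37a, Rplp0 and Rplp1, and the small subunit genes were Rps3, Rps9, Rps13, Rps24 and Rps27l. In 0 members was the NOD library lower in all 4 batches, where 7.39% of all genes were.

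Batch 4 ordered the members otherwise than the other batches. In batches 1 to 3, 33 of 76 members (20 large, 13 small) were higher in the NOD library each time, or 43.4%, where 15.4% of all genes were. In batch 4, 11 of those 20 and 5 of those 13 were higher again, with a median log2 ratio of 0.08 and -0.09. Together that is 16 of 33, near the share over all genes, where 1085 of 2248 were higher again. Over the 76 members the Spearman correlation of the log2 ratios was 0.505 between batches 1 and 2, 0.174 between 1 and 3 and 0.317 between 2 and 3. Against batch 4 it was -0.225, -0.324 and -0.281 for batches 1, 2 and 3. These are descriptions over genes of shared libraries, with no test. Members lower in all of batches 1 to 3 were Rpl3, Rpl4, Rpl10a and Rps6, or 3 large and 1 small, where 14.4% of all genes were. All 4 were higher in the NOD library of batch 4. Of the 2104 genes overall that were lower in batches 1 to 3, 1079 were lower in batch 4 too.

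**Figure D4:**
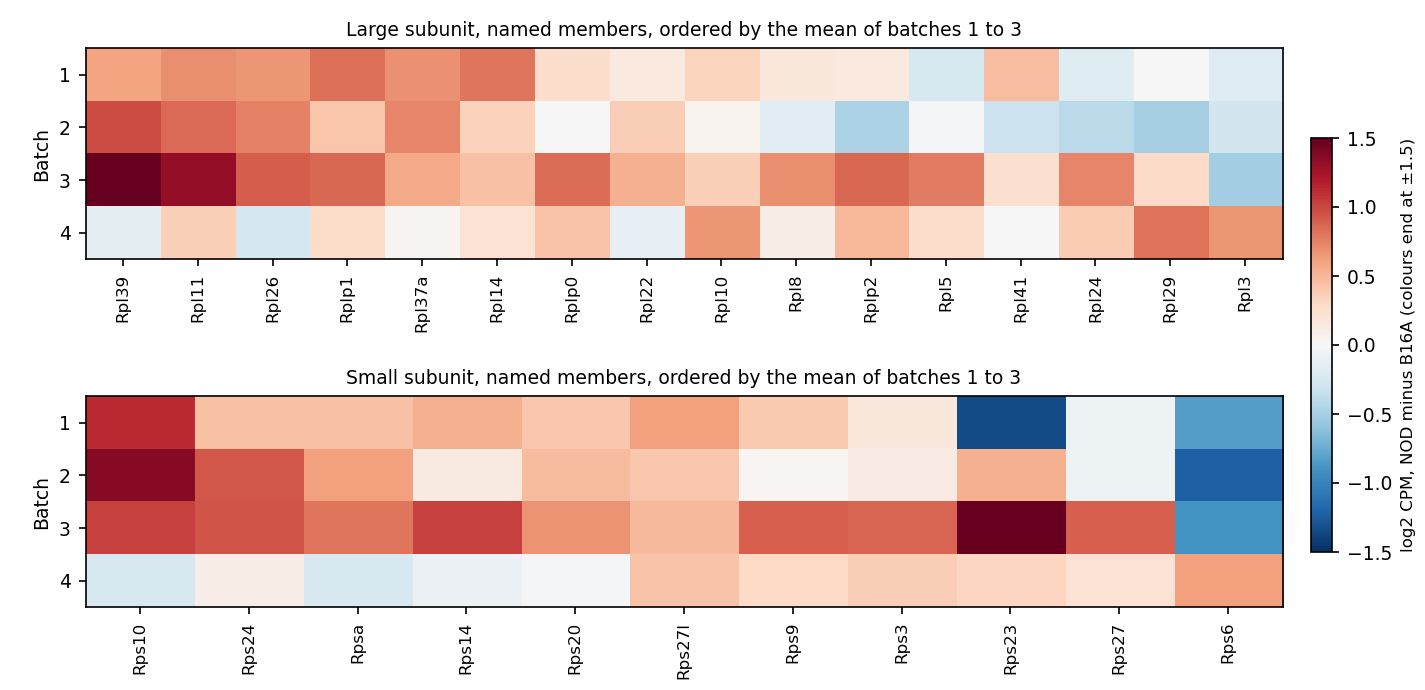
Log2 CPM of the NOD minus the B16A library (colour, red higher in NOD, ending at ±1.5) for the 27 tested members named by rule (columns) in each batch (rows), ordered by the mean of batches 1 to 3. Rpl39 and Rps10 lead the upper and lower panel, at 0.59, 0.98 and 1.52 and at 1.11, 1.37 and 1.03 in batches 1 to 3, and both are below 0 in batch 4.

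The level of the members also set batch 4 apart in both hosts. Compared with the mean of batches 1 to 3, log2 CPM in batch 4 was higher for 41 of 45 large and 31 of 31 small subunit genes, where 44.9% of all genes were higher. The median was 1.90 for the large and 2.25 for the small subunit and -0.27 for all genes, from -1.48 for Rpl29 to 5.27 for Rpl35. The 4 genes that were lower, named after their values were seen, were Rpl6, Rpl11 (-0.49), Rpl29 and Rpl38. Batch 4 also differed in depth and in make-up. Its libraries had a count for 19751 (NOD) and 20723 (B16A) genes, against 29729 to 33175 in batches 1 to 3. The actin gene Actb took 8.98% (NOD) and 8.33% (B16A) of their counts, against 0.773% to 1.51% in batches 1 to 3. Gm10800 took 0.00205% and 0.00469%, against 5.87% to 17.1%. The part of depth and make-up in these levels cannot be told apart from batch.

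The 6 members called without batch 4 are described next, since the result over all libraries turns on that batch. With its 2 libraries left out and batch 1 to 3 as a block, 4 large and 2 small subunit genes were higher in NOD hosts at an adjusted p under 0.05, where 0.159% of all 15716 genes then tested were. No member was lower, where 0.0445% of all genes were. The medians were then 0.21 for the large and 0.26 for the small subunit.

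Rps10, at the head of the small subunit and modified when ribosomes collide, lies at chr17:27630418-27636669. It stood at 135, 81.9, 160 and 183 CPM in NOD libraries 1 to 4 and at 62.4, 31.7, 78.3 and 216 CPM in B16A libraries 1 to 4. In batches 1 to 3 every NOD library was above every B16A library, and in batch 4 the NOD library was the lower of the pair. The log2 fold change was 0.81 ± 0.22 (SE; edgeR, adjusted p = 0.683) over all batches and 1.17 ± 0.16 (adjusted p = 0.000235) without batch 4. DESeq2 and limma voom with the block gave 0.83 and 0.96 over all batches (adjusted p = 0.0386 and 0.0344).

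Rps24, needed for the maturation of small subunit RNA, lies at chr14:24487125-24496959. Its CPM was 343, 217, 511 and 341 in NOD and 253, 114, 266 and 317 in B16A libraries. It was higher in the NOD library of each batch, by a small margin in batch 4, and the ranges of the hosts overlapped. Its log2 fold change was 0.60 ± 0.16 (edgeR, adjusted p = 0.683) and, without batch 4, 0.77 ± 0.15 (adjusted p = 0.0114). DESeq2 and limma voom with the block gave 0.61 and 0.65 (adjusted p = 0.0379 and 0.0671), so only the first called it over all batches.

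Rpl39 (chrX:37082520-37085402) stood at 167, 94.4, 270 and 211 CPM in NOD and 111, 47.9, 93.8 and 233 CPM in B16A libraries. The NOD library was higher in batches 1 to 3, most in batch 3, and lower in batch 4. The log2 fold change was 0.73 ± 0.21 (edgeR, adjusted p = 0.683) and, without batch 4, 1.04 ± 0.17 (adjusted p = 0.00228). Neither DESeq2 nor limma voom with the block called Rpl39 over all batches, at 0.75 and 0.88 (adjusted p = 0.0619 and 0.0605). Its testis-enriched paralog Rpl39l, which shares no window, was not tested: it stood at 0.627 to 0.748 CPM in NOD and at 0.761, 1.09, 0.809 and 4.36 CPM in B16A libraries.

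Rpl26, which sits at the mouth of the exit tunnel, lies at chr11:68901583-68906989. It stood at 230, 131, 325 and 450 CPM in NOD and 145, 77.7, 173 and 542 CPM in B16A libraries. As for Rpl39, the NOD library was higher in batches 1 to 3 and lower in batch 4. Its log2 fold change was 0.51 ± 0.18 (edgeR, adjusted p = 0.762) and, without batch 4, 0.78 ± 0.14 (adjusted p = 0.00881). Over all batches, DESeq2 and limma voom with the block gave 0.52 and 0.66 (adjusted p = 0.159 and 0.0901).

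Rpl11 and Rpl5 travel together to the large subunit with a small ribosomal RNA and can bind Mdm2, the regulator of the tumour suppressor Trp53. Rpl11 (chr4:136028265-136053428) stood at 32.0, 17.6, 39.9 and 16.3 CPM in NOD and 19.6, 9.67, 15.9 and 12.6 CPM in B16A libraries. It was higher in the NOD library of all 4 batches. The log2 fold change was 0.81 ± 0.22 (edgeR, adjusted p = 0.683) and, without batch 4, 0.97 ± 0.22 (adjusted p = 0.0472). Over all batches with the block, DESeq2 gave 0.82 with no adjusted p, and limma voom gave 0.89 (adjusted p = 0.131). Rpl5 stood at 16.5, 11.8, 22.6 and 67.6 CPM in NOD and 19.5, 12.0, 13.1 and 56.5 CPM in B16A libraries, lower in NOD in batches 1 and 2 and higher in batches 3 and 4. Its log2 fold change was 0.20 ± 0.21 (edgeR, adjusted p = 0.961). The difference between the pair was not tested. All coding windows of both genes are shared, with 10 and 14 pseudogenes.

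Rplp0, Rplp1 and Rplp2 form the stalk that brings translation factors to the large subunit. Rplp1 (chr9:61913284-61914542) stood at 1255, 655, 1314 and 1544 CPM in NOD and 710, 493, 725 and 1277 CPM in B16A libraries. It was higher in the NOD library of every batch, but the ranges of the hosts overlapped. NOD library 2 was below B16A libraries 1 and 3, and B16A library 4 was above NOD library 1. The log2 fold change was 0.59 ± 0.14 (edgeR, adjusted p = 0.683) and, without batch 4, 0.70 ± 0.15 (adjusted p = 0.0325). DESeq2 and limma voom with the block gave 0.60 and 0.72 (adjusted p = 0.0102 and 0.0147). Rplp0 stood at 145, 101, 190 and 1620 CPM in NOD and 121, 100, 106 and 1202 CPM in B16A libraries, higher in NOD in every batch but nearly level in batch 2 (log2 fold change 0.39 ± 0.15; edgeR, adjusted p = 0.795). Rplp2 stood at 95.7, 58.7, 123 and 1202 CPM in NOD and 86.6, 81.6, 68.0 and 850 CPM in B16A libraries, lower in NOD in batch 2 only (0.27 ± 0.18; edgeR, adjusted p = 0.936).

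**Figure D5:**
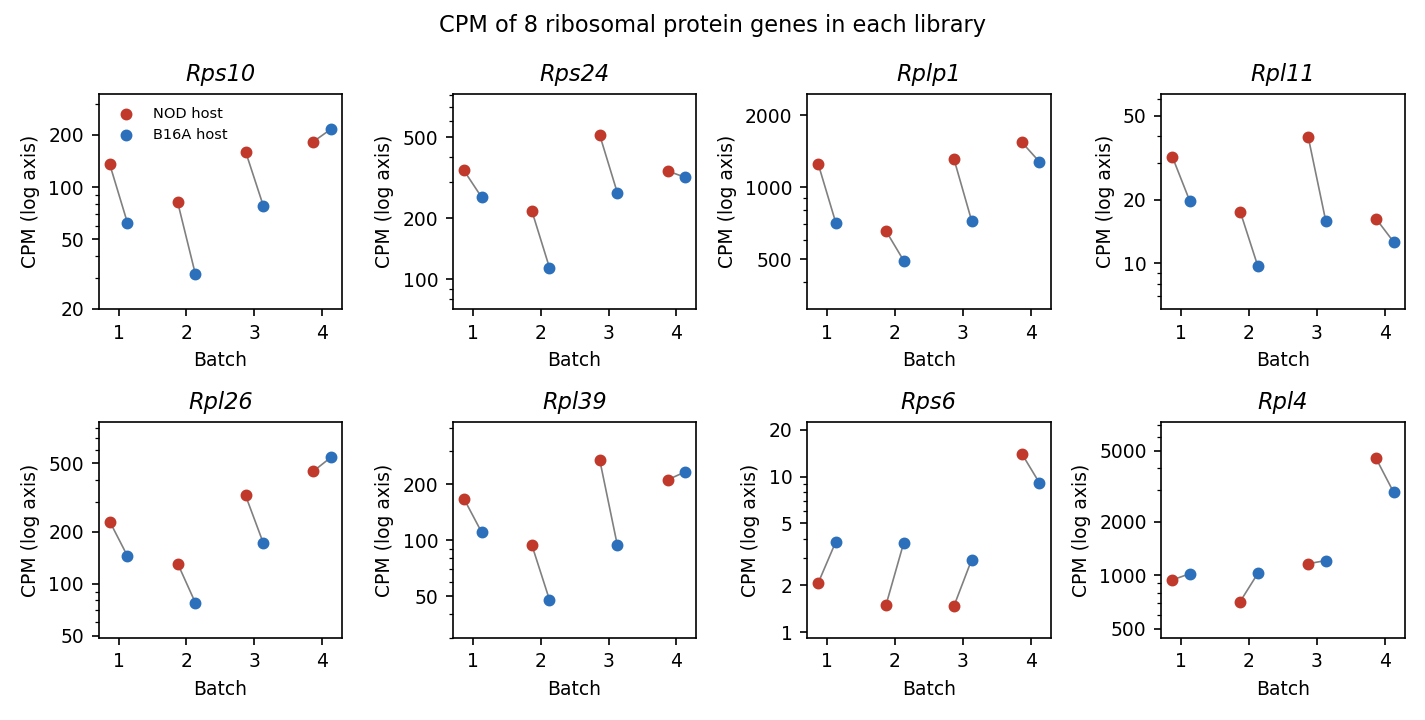
CPM (log axis) of 8 members in the NOD (red) and B16A (blue) library of each batch, joined by a line. Rps10, Rps24, Rplp1, Rpl11, Rpl26 and Rpl39 are higher in NOD in batches 1 to 3, while Rps6 and Rpl4 are lower there and higher in batch 4, at 14.0 against 9.09 CPM and 4545 against 2925 CPM.

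Rps6, the substrate of the S6 kinases, went the other way in batches 1 to 3. It stood at 2.07, 1.50, 1.47 and 14.0 CPM in NOD and 3.81, 3.74, 2.91 and 9.09 CPM in B16A libraries. The NOD library was the lower in batches 1 to 3 and the higher in batch 4. These values rest on 8 to 25 reads per library in batches 1 to 3, and all coding windows of Rps6 are shared. For Rps6 the log2 fold change was -0.54 ± 0.48 (edgeR, adjusted p = 0.95) and, without batch 4, -1.05 ± 0.60 (adjusted p = 0.703). Rpl4, which lines the exit tunnel and was chosen after its values were seen, stood at 942, 713, 1161 and 4545 CPM in NOD and 1022, 1026, 1211 and 2925 CPM in B16A libraries. Rpl4 shares 20.3% of its windows, and its log2 fold change was -0.02 ± 0.17 (edgeR, adjusted p = 0.998).

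Rps3 and Rpl8 were among the members with the most unique sequence and the highest levels. Rps3, at the messenger RNA entry, shares 8.09% of its windows. It stood at 1840, 1040, 2826 and 4295 CPM in NOD and 1648, 954, 1539 and 3326 CPM in B16A libraries, higher in NOD in all 4 batches (log2 fold change 0.38 ± 0.16; edgeR, adjusted p = 0.821). Rpl8, next to the peptidyl transferase centre, shares 8.73% and stood at 2028, 1351, 2617 and 2365 CPM in NOD and 1820, 1510, 1613 and 2209 CPM in B16A libraries. It was lower in NOD in batch 2 only (0.20 ± 0.16; edgeR, adjusted p = 0.942). Rps9 stood at 249, 123, 370 and 2830 CPM in NOD and 190, 121, 199 and 2300 CPM in B16A libraries, and Rpl14 at 141, 86.2, 170 and 1568 CPM and 81.1, 67.7, 125 and 1352 CPM. Both were higher in NOD in all 4 batches, with log2 fold changes of 0.40 ± 0.15 and 0.45 ± 0.14 (edgeR, adjusted p = 0.793 and 0.716). The median log2 fold change was 0.23 for the 11 members with under 50% of windows shared, 0.33 for 6 with 50% to 75%, 0.29 for 31 above that and 0.22 for the 28 fully shared ones. The fold change showed no such order along the shared portion as the level did (Spearman -0.0928 over 76 members, a description). By subunit it was 0.0732 for the large and -0.307 for the small subunit.

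Other members named by rule added no call. Rpl37a and Rps20 had log2 fold changes of 0.49 ± 0.16 and 0.38 ± 0.14 (edgeR, adjusted p = 0.734 and 0.775), and Rps14 had 0.40 ± 0.17 (adjusted p = 0.842). Rpsa, also known as a laminin receptor, stood at 68.8, 36.8, 80.9 and 49.2 CPM in NOD and 50.7, 24.0, 46.4 and 57.6 CPM in B16A libraries, again higher in batches 1 to 3 and lower in batch 4 (0.40 ± 0.19; edgeR, adjusted p = 0.849). The lowest levels per kb were those of Rpl24 and Rpl29 in the large and Rps6 and Rps23 in the small subunit. Rpl24 rested on 1 to 14 reads and Rps23 on 7 to 31 reads per library in batches 1 to 3, and their log2 fold changes were 0.24 ± 0.56 and 0.37 ± 0.49 (edgeR, adjusted p = 0.996 and 0.966). Rpl29 and Rpl41 had 0.18 ± 0.50 and 0.10 ± 0.15 (edgeR, adjusted p = 0.996 and 0.974).

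None of the tested partners of the paralog pairs that follow was called. Rpl3, a core protein of the large subunit, stood at 11.5, 6.17, 3.92 and 82.3 CPM in NOD and 13.2, 7.49, 5.66 and 52.0 CPM in B16A libraries, lower in NOD in batches 1 to 3 and higher in batch 4 (log2 fold change 0.00 ± 0.29, which is below 0 under other scalings; edgeR, adjusted p = 1.000). Its muscle paralog Rpl3l had 0 to 11 counts per library and was not tested. Rpl10, which completes the large subunit before joining, stood at 11.5, 5.98, 8.99 and 122 CPM in NOD and 9.13, 5.77, 6.96 and 77.0 CPM in B16A libraries, higher in NOD each time (0.40 ± 0.20; edgeR, adjusted p = 0.874). Its testis paralog Rpl10l had 0 to 5 counts and was not tested; a count of 0 allows up to 0.125 to 0.547 CPM, depending on the library. Rps27 stood at 26.7, 7.11, 9.48 and 120 CPM in NOD and 28.2, 7.49, 5.02 and 103 CPM in B16A libraries (0.22 ± 0.20; edgeR, adjusted p = 0.957). Rps27l, a paralog induced by Trp53, stood at 9.64, 7.48, 13.7 and 40.5 CPM and 6.24, 5.62, 9.71 and 30.0 CPM, and was higher in NOD in all 4 batches by 0.61, 0.40, 0.49 and 0.43 (0.49 ± 0.23; edgeR, adjusted p = 0.849). Rpl22, needed by developing alpha-beta T cells, had a log2 fold change of 0.23 ± 0.14 (edgeR, adjusted p = 0.917), and its paralog Rpl22l1 had 0.55 ± 0.25 (adjusted p = 0.844). Rpl23a and the annotated pseudogene Rps4l, the other members with too few counts to test, stayed at or under 1.72 and 0.809 CPM.

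The other lists of pathway genes had medians of -0.03 to 0.17 over all batches. Of 7 tested ribosomal protein genes that the symbol pattern misses, such as Gnb2l1 (Rack1) and Fau, 6 had a positive log2 fold change, with a median of 0.17, and without batch 4 it was again 6, with a median of 0.26, level with the small subunit in that fit. Of 15 genes of RNA polymerase I, which makes ribosomal RNA, and its accessory factors, 10 were positive (median 0.08). Without batch 4 it was 9 (median 0.04). Of 52 ribosome assembly factors, 29 were positive (median 0.09), and without batch 4 it was 23 (median -0.05). Of 15 regulators of ribosomal protein messenger RNAs, 7 were positive (median -0.03), and without batch 4 it was 3 (median -0.09). No gene of these lists was called in either fit (edgeR). The assembly factors with the smallest p were Nip7 and Emg1, at 0.70 ± 0.20 and 0.52 ± 0.15 (edgeR, adjusted p = 0.683 each), and both were higher in NOD in all 4 batches. Larp1, which binds the start of ribosomal protein messenger RNAs, stood at 122, 140, 110 and 41.9 CPM in NOD and 147, 199, 157 and 41.5 CPM in B16A libraries, lower in NOD in batches 1 to 3 (-0.32 ± 0.14; edgeR, adjusted p = 0.844).

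Start regions are shown for the members called without batch 4. These members were picked for being higher in NOD in batches 1 to 3, so their common direction there is set by the choice. RefSeq start regions (GRCm38.p6, 250 bases before to 50 after the annotated start) were present for 60 members, 37 large and 23 small, and Rplp1 was not among them. Each line gives 80 bases before and 20 from the annotated start, 5′ to 3′ on the gene's strand. Capitals mark an ETS core (CCGGAAG, the letters bound by ETS factors such as GABPA) and, in Rps10, the run of C and T at the start.
Rps10 (chr17:27635225-27635324, minus strand): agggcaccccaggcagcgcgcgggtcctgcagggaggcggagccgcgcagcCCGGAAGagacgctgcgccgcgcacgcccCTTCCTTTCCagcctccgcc
Rpl11 (chr4:136053374-136053473, minus strand): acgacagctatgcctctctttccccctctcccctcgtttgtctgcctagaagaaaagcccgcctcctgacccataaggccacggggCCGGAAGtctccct
Rpl26 (chr11:68901486-68901585, plus strand): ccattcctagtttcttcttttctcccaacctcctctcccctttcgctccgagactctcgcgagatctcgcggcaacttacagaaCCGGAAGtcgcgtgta
Rps24 (chr14:24490598-24490697, plus strand): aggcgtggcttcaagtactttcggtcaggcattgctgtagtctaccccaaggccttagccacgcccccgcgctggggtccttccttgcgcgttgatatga
Rpl39 (chrX:37085203-37085302, minus strand): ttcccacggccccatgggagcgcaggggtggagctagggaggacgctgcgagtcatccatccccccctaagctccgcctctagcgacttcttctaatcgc
The ETS core lies before the start in Rps10 and just after it in Rpl11 and Rpl26. Rpl39 holds one in its full 300-base region but outside the stretch printed, and Rps24 holds none.

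Some patterns were found more often near members' starts than near the starts of all genes. The ETS core, on either strand, was in 25 of 60 members (41.7%, 15 of 37 large and 10 of 23 small). It was in 9.93% of the 27025 genes with a start region. A gene counted once if any of its start regions held the match. A C at the annotated start followed by at least 4 bases of C or T, the beginning of a TOP messenger RNA through which LARP1 acts, was in 13 of 60 members (21.7%) and 3.01% of all genes. Only the annotated base itself was searched, so transcripts that start some bases away would be missed. These shares are thus no count of TOP messenger RNAs. A CRE (TGACGTCA) was in 8.33% of members and 2.03% of all, and a YY1 core (AAGATGGC) in 8.33% and 3.19%. An E-box (CACGTG) was in 10% and 8.09%, and a TATA box (TATAAA) in 10% and 15.7%. Each was searched on both strands except the start pattern, and an ETS core can end in the letters that open a YY1 core, which counted for both. These matches describe letters near an annotated start and show no binding.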

How the data were processed

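Per the labels' protocols, sorted-cell RNA went through SeqPlex amplification and gave single reads of 50 bases. The deposited values are raw read counts per gene name, 1 table for the series, not normalized. The submitters' processing notes name STAR, HTSeq, DESeq2 and mm10. Versions, annotation, use of strand and the treatment of reads that match several places were not given in the sources used here. Therefore genes with near-identical copies, antisense genes and overlapping genes are uncertain. All 46625 rows name a gene, and the number of value columns without a sample is 0.

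The tests used edgeR 4.0.16 under R 4.3.3 (robust quasi-likelihood, TMM, filterByExpr on host) with host and batch as terms, all 8 libraries in 1 fit. The filter left 14607 genes, the adjustment (Benjamini-Hochberg, threshold 0.05) ran over all of them, and 76 of 81 members were tested. Scripts were tested on simulated data. CPM uses TMM-adjusted totals, and within-batch ratios are differences of log2 CPM with a prior count of 2. The labels call the numbers batches, which pairs the samples. Deviations from host means correlated at r = 0.625, 0.702, 0.611 and 0.906 within batches 1 to 4, and at 0.465 to 0.741 between different batches of 1 to 3. Apart from batch 4, the pairing thus rests on the labels. No 2 libraries agreed within sampling noise (smallest chi-square per degree of freedom 7.04). DESeq2 1.42.0 and limma 3.58.1 (voom), other scalings and filters, no block and each batch left out served as alternatives. Gene models came from GENCODE vM21. The coding sequence was that of the transcript with the best APPRIS, then support level, then shortest length. Wilson intervals and the limit for a count of 0 (3 counts) cover counting error only, since the labels describe no molecular identifiers.

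The members and all lists were chosen with earlier results of these data known. Named members (30, of which 27 were tested) are, per subunit, the 5 with the smallest p, the 3 highest and 2 lowest per kb, every member called in any fit, and fixed members (stalk, Rpl5, Rpl11, Rpsa, Rps6, paralog pairs). Others are said to be chosen after their values were seen, or are listed to account for a count, an extreme or a sequence shown. Some single genes are not reported here.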

Additional observations from a re-analysis of the deposited data

Results flagged for a closer look

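The values below were picked out because 1 library lay far from the other 3 of its host, by Dixon's criterion for groups of 4. Chance flags about 1 in 20 groups. Of 60 groups of named members' CPM, 25 were picked out, and in 23 the far library was the batch 4 library, each time the highest. None of the 27 sets of within-batch log2 ratios was.

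In both hosts the batch 4 library was far above the others for Rpl10 (122 CPM in NOD and 77.0 in B16A), Rpl14 (1568 and 1352), Rpl3 (82.3 and 52.0), Rpl41 (988 and 985), Rplp0 (1620 and 1202), Rplp2 (1202 and 850), Rps14 (3173 and 3379), Rps6 (14.0 and 9.09) and Rps9 (2830 and 2300). In B16A hosts alone it was so for Rpl37a (218 CPM), Rpl39l (4.36), Rpl5 (56.5), Rps23 (14.7) and Rps27l (30.0), and for the share of counts on large subunit genes (1.8%) and on small subunit genes (1.57%). The difference between hosts in these patterns was not tested. Rpl10l in NOD library 1 (0.172 CPM, 1 read) and Rpl3l in NOD library 2 (2.06 CPM, 11 reads) were the remaining far values, both of genes with too few counts to test.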

How the results depend on the processing

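The count of called members depended on the test and on batch 4. It was 0 large and 0 small subunit genes with edgeR and the replicate block, and also with no replicate block, where the medians were 0.28 and 0.15 and their difference was 0.12. In that unpaired fit 0 members, and 34 of all genes, reached an unadjusted p under 0.05. DESeq2 with the block called 1 and 2, limma voom 1 and 1, and edgeR with no filter 0 and 1 (Rps10). With each batch left out in turn the counts ranged from 0 to 4 and from 0 to 2, all of them from leaving out batch 4, and the medians from 0.14 to 0.30 (large) and 0.15 to 0.32 (small). Without batch 4 and with no replicate block 0 were called. No member was called lower in any fit. With library totals alone, 36 of 45 and 24 of 31 members had a positive log2 fold change, against 44% of all genes. Among members with under 75% of windows shared (8 large, 9 small; chosen after seeing the data) the median difference, large minus small, moved to -0.17. A minimum mean of 10 CPM, also chosen after seeing the data, gave -0.02. With Gm10800 left out of the library totals, the large subunit's share in batch 2, NOD minus B16A, turned from -0.00716 to 0.0688 percentage points. The mean differences in share ranged from 0.0927 to 0.191 (large) and 0.0467 to 0.151 points (small) with each batch left out.

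Of 351 alternative values of named members, 328 kept direction and call, 12 became called and 11 changed sign, in 4 of 27 members. DESeq2 gave no adjusted p for Rpl3, Rpl5, Rpl10, Rpl11, Rpl24, Rpl29, Rps6, Rps23, Rps27 and Rps27l. These members were taken as not called there. Rpl3 went to -0.0087 (DESeq2), -0.0311 (upper-quartile factors), -0.0651 (library totals), -0.0338 (no filter), -0.0099 (at least 1 CPM in 4 libraries) and -0.29 (no block, without batch 4). Rpl29 went to -0.0119 with no block and without batch 4. With each batch left out in turn, Rpl3 ranged from -0.32 (without batch 4) to 0.13, Rpl29 from -0.056 (without batch 4) to 0.40, Rpl41 from -0.037 (without batch 1) to 0.23 and Rps23 from -0.10 (without batch 3) to 0.86. The cause was not tested. Depth limits the low members: Rps6, Rps23 and Rpl24 had under 32 reads per library in batches 1 to 3.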

Other observations

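Among genes outside the set, those whose log2 CPM followed the members' mean most closely were Cggbp1 (Pearson r = 0.9989), Swi5 (0.9971), Gm37289 (0.9965), Als2cl (0.9962) and Gas5 (0.9955). Each batch was centred on its own mean over 8 libraries, so the likeness rests on 4 differences per gene, and among 14607 genes some follow any such pattern. The members' mean was higher in the NOD library by 0.14, 0.06, 0.53 and 0.18 in batches 1 to 4. Gas5, a host gene of small nucleolar RNAs, was higher by 0.16, 0.14, 0.88 and 0.28.

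Nop56, a core protein of the particles that methylate ribosomal RNA, stood at 66.8, 65.3, 79.6 and 401 CPM in NOD and 75.2, 49.9, 59.1 and 198 CPM in B16A libraries. It was lower in NOD in batch 1 and most raised in batch 4 (0.43 ± 0.18, SE; edgeR, adjusted p = 0.825). Over the 52 assembly factors the median within-batch log2 ratio was -0.12, -0.06, 0.07 and 0.34, highest in batch 4, where the ribosomal protein medians were highest in batch 3. B cell markers summed to 1273 CPM in the NOD library of batch 4 and to 654 in its B16A partner, and their part in these values was not tested.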
